A study of Mus musculus with 6 samples.

Results

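Pax5 peaks that lie away from gene starts and carry H3K27ac were described in pre-B cells. They were chosen by 3 features read from the deposited lists and the annotation: a distance of more than 1 kb from every transcript start in GENCODE M1, an overlap of at least 1 bp with an H3K27ac peak, and no overlap with H3K4me3. Of the 15445 peaks of the Pax5 list, 3245 (21%) met this rule and are called acetylated distal Pax5 peaks here. The cells came from RAG-/-µ+ mice on the C57BL/6 background, aged 6 to 14 wk and of both sexes, which bear a rearranged IgM transgene. The mice lack RAG, so the pre-B cells cannot rearrange their own immunoglobulin genes, and the transgene supplies the heavy chain; this genotype is shared by all samples. Pax5, H3K27ac and H3K4me3 were each profiled by ChIP-seq in 1 library, and the 3 input samples were not used here. With 1 library per list there is no replicate, so the values below are counts and shares without a test. The 95% Wilson intervals given with shares cover counting error only.

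Pax5 is a paired-domain transcription factor that commits lymphoid progenitors to the B lineage, activating genes of the B cell programme and repressing genes of other lineages. H3K27ac is an acetylated histone found at active promoters and enhancers, whereas H3K4me3 is concentrated at active promoters, so a site with the first mark and without the second has the signature commonly used for an active enhancer. Enhancers are bound by several factors together and can act on genes far from them, so the gene with the nearest start is a label and need not be the gene acted on.

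The sequences below show the Pax5 word in the highest-scoring of these sites that held it. Pax5 recognises a long and variable site, and its most constant part reads GCGTGAC in what is called the G form here and GCATGAC in the A form. The 8 acetylated distal Pax5 peaks of highest Pax5 score that held either word in the 300 bp around their midpoint were taken. For each, 121 bases of mm9 centred on the word nearest the midpoint are printed 5′ to 3′ on the strand that reads the word forward, with the word in capitals.
Slc30a3 (chr5:31386504-31386624, plus strand): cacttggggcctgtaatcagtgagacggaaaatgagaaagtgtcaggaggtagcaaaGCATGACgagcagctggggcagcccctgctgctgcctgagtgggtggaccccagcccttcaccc
Gpr12 (chr5:147499726-147499846, minus strand): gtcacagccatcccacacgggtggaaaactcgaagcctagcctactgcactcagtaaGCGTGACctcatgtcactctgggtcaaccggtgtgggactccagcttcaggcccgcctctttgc
Mlec (chr5:115617652-115617772, minus strand): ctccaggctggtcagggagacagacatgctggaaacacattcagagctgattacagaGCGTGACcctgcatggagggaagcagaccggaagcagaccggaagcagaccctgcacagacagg
Lbh (chr17:73274514-73274634, minus strand): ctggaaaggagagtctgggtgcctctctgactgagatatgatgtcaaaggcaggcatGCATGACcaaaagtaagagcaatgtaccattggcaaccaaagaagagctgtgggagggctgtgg
Mrps6 (chr16:92038411-92038531, plus strand): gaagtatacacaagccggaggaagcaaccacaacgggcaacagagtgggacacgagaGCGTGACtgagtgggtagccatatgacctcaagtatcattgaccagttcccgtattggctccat
Cd2 (chr3:101096989-101097109, minus strand): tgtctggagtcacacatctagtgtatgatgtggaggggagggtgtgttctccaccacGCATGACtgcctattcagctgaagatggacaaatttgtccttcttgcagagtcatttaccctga
Mysm1 (chr4:94666169-94666289, plus strand): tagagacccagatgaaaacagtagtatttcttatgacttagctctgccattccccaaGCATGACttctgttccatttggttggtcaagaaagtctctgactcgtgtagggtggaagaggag
Asb2 (chr12:104563853-104563973, minus strand): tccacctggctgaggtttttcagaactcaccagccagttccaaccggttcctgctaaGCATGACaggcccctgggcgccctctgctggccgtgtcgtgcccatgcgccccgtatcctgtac
The A form stood in 5 of the 8 and the G form in 3, and each held 1 word in its 300 bp window. The words lay between 8 bp (Mysm1) and 139 bp (Asb2) from the peak midpoint. By the nearest start of a protein-coding gene, the regions were 5119 bp from Cd2, an adhesion receptor of T, NK and, in the mouse, B lineage cells from the pre-B stage, and 6951 bp from Lbh, in an intron. The regions at Slc30a3, Mlec, Asb2, Mrps6 and Mysm1 lay 9396, 9413, 12809, 20019 and 20430 bp away, and that at Gpr12 lay 103047 bp away. The peak at Mysm1, which encodes a histone H2A deubiquitinase used in blood cell formation, was in an intron and the one at Asb2 had its midpoint in an exon. The remaining 5 were intergenic. The Pax5 midpoint lay inside an H3K27ac peak in 6 of the 8 and beside one in Mysm1 and Asb2.

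The lists were checked at the starts of marker genes. Of 7 B lineage genes, all had Pax5 and H3K27ac within 1 kb of a start and 5 had H3K4me3, with Vpreb1 and Igll1, the surrogate light chain genes, as the 2 that had none. Pax5 was at none of the 5 T lineage, 5 myeloid and 4 erythroid genes of this short list, although H3K4me3 was at 1, 3 and 2 of them and H3K27ac at 1, 3 and 3. In wider lists it was at a start of 4 of 19 T lineage genes and of 3 of 21 myeloid and erythroid genes, Cd2, Cebpb and Sfpi1 among them. The part of other cells in the lists was not tested. The lists give no read counts, so depth is unknown, and the scores are the peak callers' own numbers on a scale that the files do not name.

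Of the 7044 Pax5 peaks (45.6%) farther than 1 kb from a start, 46.1% met the rule. A further 1493 had both marks, 142 had H3K4me3 only and 2164 had neither mark. These 2164 unmarked distal peaks, and the 7784 Pax5 peaks within 1 kb of a start that overlapped H3K4me3 and are called promoter peaks here, serve for comparison. The 1 kb limit cut through a continuous range. The acetylated peaks just outside lay 1007, 1009 and 1013 bp from starts of Zeb2, Mtss1 and Ints1, with Pax5 scores of 1037.04, 117.97 and 243.56. Those just inside lay 972, 980 and 987 bp from Mir24-2, Coq2 and Acss1, with scores of 217.13, 116.57 and 143.53.

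Acetylated distal Pax5 peaks were narrower and scored lower than promoter peaks, and were wider and scored higher than unmarked distal peaks. Their median width was 855 bp (quartiles 741 and 1070), against 1128 bp at promoters and 711 bp at unmarked sites. A wider Pax5 peak has more room for an overlap with H3K27ac, so the difference in width from unmarked sites may partly restate the rule. The median Pax5 score was 187 (quartiles 123 and 328), against 256 and 136. Of the acetylated distal peaks, 44.6% scored above the median of the Pax5 list, and 145 were among its 1000 highest. The score hardly varied with place, with medians of 189 in introns, 182 between genes and 203 in exons.

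The highest Pax5 score was 2379.19, at a peak 22276 bp upstream of Vwf, the gene of von Willebrand factor, whose midpoint lay beside an H3K27ac peak of score 7.40. It ranked 18 in the whole Pax5 list. The next 3 were in introns of their nearest genes, namely Ttll11 (2056.03), 2510003E04Rik (2039.54) and Mad1l1 (2016.53), the last gene encoding a mitotic checkpoint protein. The peak upstream of Pik3ap1, which encodes the adaptor BCAP that couples the B cell receptor to PI3 kinase, scored 1902.63 and lay 5769 bp from its start. A peak nearest to Zap70, better known as a T cell receptor kinase, scored 1895.34 but sat in an intron of another gene, and peaks nearest to Plekhm3 and Chdh scored 1833.26 and 1765.08. The H3K27ac score was not high at each of these. It was 107 at Mad1l1 and 62.7 at Pik3ap1, but 5.15 at Plekhm3 and 4.24 at Chdh, and the Pax5 midpoint was outside the H3K27ac peak at both.

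By H3K27ac score the order was a different one. The highest overlapping H3K27ac peak, of score 224, held a Pax5 peak of score 235.96 that was 190948 bp upstream of Map3k1, a kinase of the JNK pathway. A pair of neighbouring Pax5 peaks of scores 553.92 and 242.87 shared an H3K27ac peak of score 173 in the region of Katnal1, the former being nearest to Gm15409. A peak of score 168 overlapped a Pax5 peak of score 96.07 that was 18345 bp from Ly6e, which encodes a GPI-anchored surface protein. An H3K27ac peak of score 167 held 2 Pax5 peaks, of scores 146.87 and 417.95, nearest to Zfp36 and Med29. Zfp36 encodes tristetraprolin, an mRNA-destabilising protein, and Med29 a Mediator subunit. Over all acetylated distal Pax5 peaks, the highest overlapping H3K27ac score had a median of 18.2 (quartiles 9.75 and 35.1).

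Introns held slightly more of these peaks than intergenic sequence did. By midpoint, 1616 (49.8%, 48.1 to 51.5) were in an intron, 142 (4.38%, 3.72 to 5.14) in an exon and 1487 (45.8%, 44.1 to 47.5) between genes. Unmarked distal Pax5 peaks were less often in introns (40.3%, 38.3 to 42.4) and more often intergenic (53.9%, 51.8 to 56.0), and these intervals did not overlap. In the genome, introns make up 36.5% of bases, exons 3.28% and intergenic sequence 60.2%. Among the 1527 peaks in an intron of a protein-coding transcript, 610 (39.9%) were in a first intron, and first introns hold 34.0% of the intron bases.

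The midpoints were a median of 22836 bp from the nearest start of a protein-coding gene (quartiles 9969 and 53962). Of the peaks, 362 (11.2%) were nearer than 5 kb, 1093 (33.7%) were at 5 to 20 kb, 909 (28.0%) at 20 to 50 kb, 486 (15.0%) at 50 to 100 kb and 395 (12.2%) beyond 100 kb. Unmarked distal peaks lay a median of 26268 bp away, and 16.8% of them were beyond 100 kb. Of the peaks, 45.2% were upstream of the nearest start and 54.8% downstream of it. In 41.2% the midpoint was in the body of the nearest gene. In 360 peaks (11.1%) it was in an intron of a gene other than the nearest, as at Zap70, which limits what the nearest gene can stand for.

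Chromosome X held few of these peaks. It had 27, or 0.162 per Mb, and they made up 10.5% of its 258 Pax5 peaks. On the autosomes the density ran from 0.808 per Mb on chromosome 3 to 2.04 on chromosome 17, and the share of Pax5 peaks from 16.8% on chromosome 11 to 25.6% on chromosome 15. The sexes were mixed in unstated proportion, and its part in the values for X was not tested.

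H3K27ac formed a dip at the Pax5 midpoint and a shoulder on either side. An H3K27ac peak covered the midpoint in 69.1% of the acetylated distal Pax5 peaks. Averaged over both sides, the cover was 77.5% at 300 bp from the midpoint, 49.5% at 1 kb and 22.6% at 3 kb. At promoter peaks the cover was 47.3% at the midpoint, and 66.9% and 66.0% at 500 bp on the left and right. Only 7159 of the 7784 promoter peaks overlapped H3K27ac, whereas all acetylated distal ones did by the rule, so the levels are not directly comparable. H3K4me3, absent from the peak itself by the rule, covered 0.986% at 1 kb on the left and 1.11% on the right. An H3K4me3 bin was within 1 kb of the edges of 203 peaks (6.26%).

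**Figure D1:**
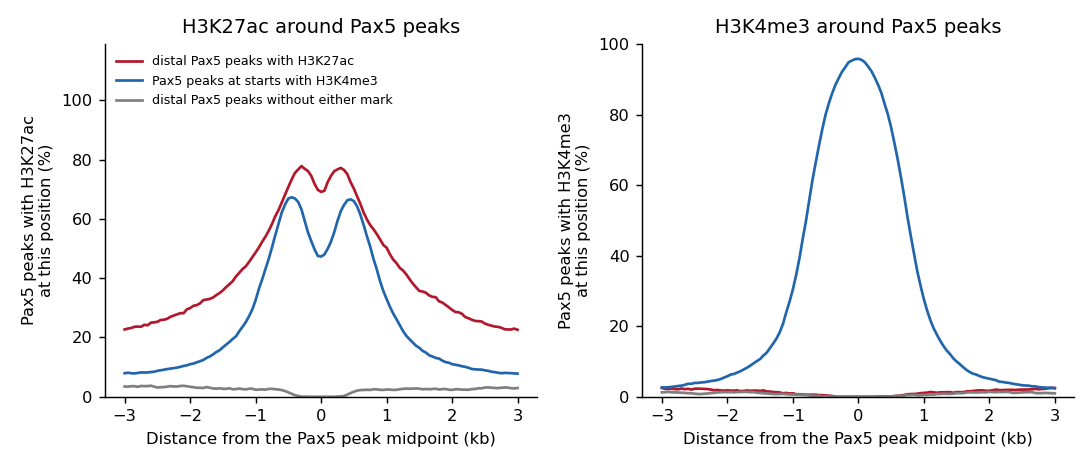
The left panel plots the percent of Pax5 peaks with an H3K27ac peak at each distance in kb from the Pax5 midpoint, and the right panel the same for H3K4me3 bins, with a line each for acetylated distal, promoter and unmarked distal Pax5 peaks. The red H3K27ac line dips to 69.1% at the midpoint between higher shoulders. The blue line for promoters, which includes peaks without H3K27ac, dips to 47.3%. The values at the midpoint of the unmarked peaks are set to 0 by the way they were chosen.

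The position of each Pax5 midpoint relative to H3K27ac peaks gave 3 classes. It was inside an H3K27ac peak in 2243 (69.1%, 67.5 to 70.7). It was between 2 H3K27ac peaks with a gap of at most 2 kb in 593 (18.3%, 17.0 to 19.6), and outside a single peak in 409 (12.6%, 11.5 to 13.8). The gaps between 2 peaks had a median of 300 bp (quartiles 193 and 504), and the Pax5 peak reached both of its neighbours in 443 of the 593 (74.7%). At promoter Pax5 peaks with H3K27ac, the between class was larger, at 36.3% (35.2 to 37.5), the inside class was smaller, at 51.4% (50.2 to 52.5), and the median gap was 473 bp. Where the midpoint was inside, the H3K27ac peak was a median of 1764 bp wide, and the midpoint was a median of 528 bp from its nearer end. A median of 84.4% of the acetylated distal Pax5 peak was covered by H3K27ac, and 1176 peaks (36.2%) were covered wholly. Pax5 scores were alike in the inside and between classes, with medians of 194 and 193, and the median was 157 beside a single peak.

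Where a Pax5 peak was present, the H3K27ac peak was wide and high. The 4035 H3K27ac peaks that overlapped an acetylated distal Pax5 peak had a median width of 869 bp and a median H3K27ac score of 14.3. These were taken at any distance from a start and with or without H3K4me3, unlike the distal set that follows. Of H3K27ac peaks farther than 1 kb from every start and without H3K4me3, called distal here, 40717 overlapped no Pax5 peak, and these had medians of 346 bp and 6.80. Ranked by H3K27ac score, and divided into 10 equal bins, distal H3K27ac peaks of the lowest bin overlapped such a Pax5 peak in 2.41% (2.00 to 2.90), those of bin 9 in 13.1% (12.1 to 14.1) and those of the highest bin in 36.2% (34.8 to 37.7), against 8.41% of all 44751. Width went with score, from a median of 259 bp in the lowest bin to 1417 bp in the highest, and a wide peak has more room for an overlap. Among H3K27ac peaks of 400 to 600 bp only, the share over 4 equal bins of score was 4.24%, 4.24%, 5.88% and 12.4%, so that the highest bin (11.1 to 13.9) still stood above the others.

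**Figure D2:**
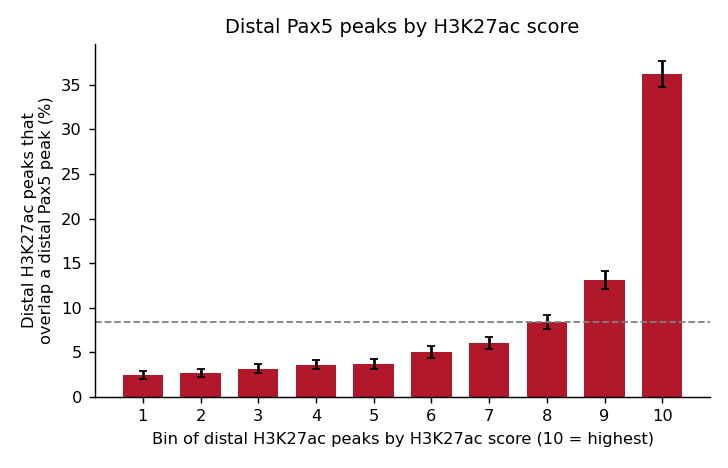
The bars give the percent of distal H3K27ac peaks that overlap an acetylated distal Pax5 peak, by 10 equal bins of the H3K27ac score, with 95% Wilson intervals as error bars and a dashed line at the 8.41% of all of them. The share is 2.41% in the lowest bin and 36.2% in the highest.

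The Pax5 sites were set in stretches rich in H3K27ac peaks. Within 10 kb of the midpoint lay a median of 5 H3K27ac peaks (quartiles 3 and 7), as many as around distal H3K27ac peaks without Pax5 (quartiles 3 and 8), against 3 at promoter peaks and 0 at unmarked distal peaks. When H3K27ac peaks within 12.5 kb of each other were joined, 44.3% of the acetylated distal Pax5 peaks were in an island of 10 or more, as were 46.5% of the distal H3K27ac peaks without Pax5 and 5.36% of the unmarked Pax5 peaks. The sets were chosen by H3K27ac, so that each acetylated site has at least 1 H3K27ac peak near it and unmarked sites overlap none, and the difference between them partly restates the rule. The acetylated Pax5 sites themselves were mostly scattered, with a median of 40139 bp to the next of their kind, although 861 (26.5%) had one within 10 kb.

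Within 100 kb, the densest groups held 9 acetylated distal Pax5 peaks. They lay near Rhoh and Chrna9 on chromosome 5, Cecr2 and Cecr5 on chromosome 6, Fam53b and Lhpp on chromosome 7, and near both Klf2 with Ap1m1 and Irf2bp2 with Tomm20 on chromosome 8. Rhoh encodes a blood-cell GTPase without enzymatic activity, and Klf2 a factor that keeps lymphocytes quiescent. Groups of 8 lay at Cxcr4, Mtss1 and Sgms1.

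The Pax5 core words were more frequent at the midpoint than beside it, but stood in a minority of the sites. Within 300 bp centred on the midpoint, 345 of the 3245 peaks (10.6%, 9.62 to 11.7) held GCGTGAC or GCATGAC on either strand. The same windows moved by 1 kb to either side held them in 2.93% (2.54 to 3.37), distal H3K27ac peaks without Pax5 in 2.96% (2.80 to 3.13) and every 10th window of the genome in 2.67%. The G form alone was in 4.10% (3.47 to 4.84) of the acetylated distal Pax5 peaks and in 0.478% (0.337 to 0.677) of the moved windows, which is 8.58 times as often. The A form was in 6.75% (5.94 to 7.66) and 2.47% (2.12 to 2.87). Within the 300 bp windows, 48.4% of the words centred within 50 bp of the midpoint, against 34.9% in the moved windows. In the windows of 13 peaks there were 2 words, and in those of 5 there were 3 or more. An exact word of 7 letters catches a part of the sites the factor can bind, so a peak without it is not a peak without Pax5.

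Unmarked distal Pax5 peaks held a core word more often than acetylated ones, although their Pax5 scores were lower. Their share was 17.5% (16.0 to 19.2), and 60.2% of their words were within 50 bp of the midpoint. The direction was the same at like scores. Between Pax5 scores of 125 and 250, the word was in 8.59% (7.14 to 10.3) of the acetylated and 17.4% (15.0 to 20.1) of the unmarked distal peaks. From 500 upwards it was in 15.6% (12.5 to 19.3) and 25.9% (18.7 to 34.7), with overlapping intervals. Promoter Pax5 peaks held a word in 7.07% (6.52 to 7.66), and theirs were mostly the G form, at 5.52%, with the A form in 1.64%. Base composition differed between the sets, with median GC contents of 50.3% at acetylated distal peaks, 48.0% at unmarked ones, 66.3% at promoters and 46.7% 1 kb away from the acetylated peaks. Among windows with 45 to 50% GC, the share was 10.3% (8.52 to 12.4) at acetylated distal peaks, 18.6% (15.5 to 22.0) at unmarked ones, 6.88% (4.21 to 11.0) at promoters and 3.39% (2.68 to 4.29) 1 kb away.

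**Figure D3:**
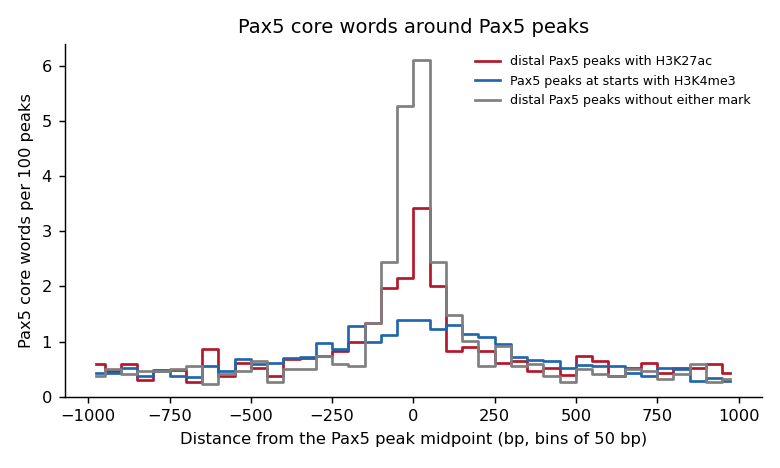
The lines give the number of Pax5 core words per 100 peaks in bins of 50 bp along 1000 bp to either side of the Pax5 midpoint, for acetylated distal, promoter and unmarked distal Pax5 peaks. The unmarked peaks reach 6.10 words per 100 peaks just right of the midpoint, the acetylated distal peaks 3.42 and the promoter peaks 1.39.

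The bases beside the G form also differed. Around the 190 G-form words at unmarked distal peaks, the base found in at least 40% of words spelled a longer site, written here as nnggnccaccaaGCGTGACcnnnnn, where n stands for a position at which no base reached that share. Around the 133 G-form words at acetylated distal peaks only 1 flanking base reached 40%, in nnnnnnnnnnnaGCGTGACnnnnnn, and positions 2 and 6 before the word came near, each with A in 38.3%. Around the 230 such words at distal H3K27ac peaks without Pax5 no flanking base did. The A form differed less next to the word. At its 219 words in acetylated distal peaks, A stood in 49.8% and 48.4% at positions 2 and 1 before the word, against 48.2% and 39.5% at the 195 words of unmarked peaks. Farther out, at positions 3 and 6 before the word, the most frequent base was in 28.8% and 31.1% at acetylated and in 47.7% and 45.1% at unmarked peaks.

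Among acetylated distal Pax5 peaks the core word was more frequent at the highest Pax5 scores. Its share was 9.36%, 9.49%, 9.37% and 14.3% (12.1 to 16.9) over 4 equal bins of the score, from the lowest, and 24.0% (16.7 to 33.2) in the 100 highest. By position it was 9.81% (8.65 to 11.1) inside H3K27ac peaks, 11.8% (9.45 to 14.7) between 2 of them and 13.4% (10.5 to 17.1) beside one, with overlapping intervals. Introns and intergenic sites had shares of 10.8% and 10.6%.

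Words of other B cell factors were more frequent at the same midpoints than 1 kb away. The E-box bound by E2A, CAGCTG, was in 38.9% (37.3 to 40.6) of the 300 bp windows of acetylated distal Pax5 peaks, in 16.0% (15.2 to 17.0) of the windows 1 kb away, in 19.4% (19 to 19.8) of distal H3K27ac peaks without Pax5 and in 10.7% of genome windows. The related E-box CAGGTG was in 33.5% (31.9 to 35.1), 22.0%, 23.5% and 17.1%, respectively. The word for PU.1, an ETS factor of B and myeloid cells, written GAGGAAGT, was in 7.64% (6.78 to 8.61), 2.00%, 3.05% and 1.81%, respectively. The EBF1 word CCCNNGGG was in 15.8% (14.6 to 17.1), against 7.84% at 1 kb and 4.71% of genome windows. The RUNX word TGTGGTT was in 13.4% (12.2 to 14.6), against 7.83% and 6.95%. The octamer word ATGCAAAT, bound by POU factors, was in 3.57% (2.99 to 4.27), against 1.53% and 2.61%, so that its excess over the genome was smaller than that over the windows 1 kb away. It was in 2.63% (2.04 to 3.40) of unmarked distal Pax5 peaks, an interval that overlapped. Median GC content was 50.3% in the midpoint windows, 46.7% at 1 kb, 48.7% at distal H3K27ac peaks without Pax5 and 41.7% in genome windows. Words other than the Pax5 core words were not compared at like GC content, so its part in their shares was not tested.

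Not every word followed this pattern. The Ikaros word TGGGAA was less frequent at the midpoint (22.6%, 21.2 to 24.1) than 1 kb away (26.7%, 25.6 to 27.8), and stood in 24.1% of genome windows. The AP-1 word TGANTCA (9.43% against 8.75%) and the NF-kB word GGACTTTCC (0.277% against 0.293%) had overlapping intervals. The IRF part of the ETS-IRF composite site, AANTGAAA, was in 11.3% (10.2 to 12.4) against 8.72% (8.06 to 9.43) at 1 kb, but it was in 11.7% of genome windows and in 15.8% (14.3 to 17.4) of unmarked distal Pax5 peaks. The FOXO word GTAAACA was in 4.87% (4.18 to 5.66) against 3.39% (2.98 to 3.86), and in 4.47% of genome windows, within the first interval. The remaining 4 words were searched on both strands like the others. The general ETS word CCGGAAGT (0.616% against 0.231%), the SP1 word GGGCGG (8.66% against 4.70%) and the CTCF word CCACNAGGG (1.91% against 1.14%) did follow the pattern. Their intervals did not overlap those at 1 kb. The CRE word TGACGTCA (0.524% against 0.324%) had overlapping intervals. The windows of H3K27ac peaks were centred on the middle of those peaks, which need not be where factors bind. The letters GGAAGT are shared by both ETS words, and the Pax5 core words end in the letters that begin the CRE word, so matches can overlap.

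**Figure D4:**
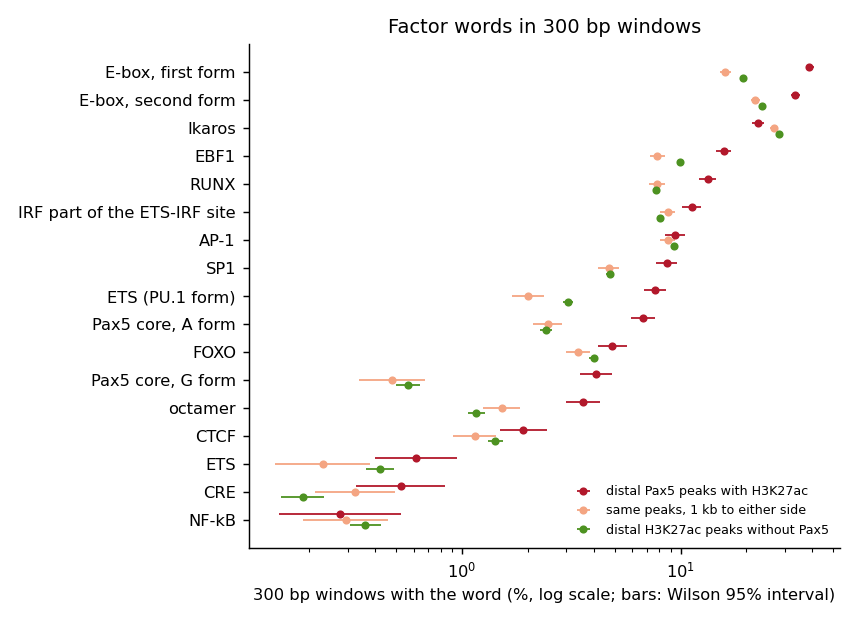
Points give the percent of 300 bp windows that hold each factor word, on a log scale, with 95% Wilson intervals as bars, for acetylated distal Pax5 peaks, the same peaks moved by 1 kb to either side, and distal H3K27ac peaks without Pax5. The first form of the E-box is at 38.9%, 16.0% and 19.4%, and the G form of the Pax5 core word at 4.10%, 0.478% and 0.565%.

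When all words of 7 letters held by at least 3% of the acetylated distal Pax5 peaks were ranked by how much more often they stood at the midpoint than 1 kb away, a word and its reverse complement counted as 1, GCGTGAC had rank 1 of 3646, at 8.58 times. The A form had rank 9, at 2.74 times. CAGCTGC, an E-box with a base added, had rank 4 at 3.20 times, in 22.8% of the peaks. ACTTCCT, which reads AGGAAGT on the other strand and is part of the PU.1 word, had rank 12 at 2.49 times, in 19.1%. AAACCAC, part of a RUNX site, had rank 17 at 2.16 times. The ranking was made on the same peaks that it describes.

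The acetylated distal Pax5 peaks were nearest to 2107 of the 22359 protein-coding genes (9.42%). Most of these genes had 1 such peak (1469 genes, 69.7%), 390 had 2, 248 had 3 or more and 58 had 5 or more. The 248 genes with 3 or more took 996 of the 3245 peaks. Long genes and genes with long flanks collect more peaks by this assignment. The median length was 15427 bp over all protein-coding genes, 36537 bp over those nearest to a peak and 63718 bp over those with 3 or more.

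Arid1b, a subunit of the BAF chromatin remodelling complex, had the most peaks, with 14 that lay from 10616 to 518595 bp from its start, 6 of them in its introns. Ets1, an ETS factor of lymphocytes, had 13. Of these, 5 lay in 1 H3K27ac peak of score 90.7 upstream of the gene, at 18765 to 26904 bp, with Pax5 scores of 362.08, 966.63, 147.99, 198.46 and 256.04 in order of position, and another 6 were in introns. Cxcr4, the chemokine receptor that holds B cell precursors in the marrow, had 11, all of them intergenic, at 8972 to 122217 bp with Pax5 scores from 93.9 to 707. Foxp1, a forkhead factor needed in early B cells, had 11 with scores of up to 338, all of them in introns but only 5 in its own body, and Zmiz1, a transcriptional coregulator, had 11 with scores of up to 356.

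Tgfbr2, the TGF-beta receptor subunit, had 10 and Mtss1, an actin-binding scaffold, had 9. Tomm20, of the mitochondrial import receptor, also had 9, but none was nearer than 78018 bp. Rftn1, a lipid raft protein of B cells, and Sgms1, a sphingomyelin synthase, had 8 each, all within their own introns. Zfp36l1, an RNA-binding protein that promotes quiescence in developing B cells, had 8 intergenic ones, and Btg1, an antiproliferative gene, was 1 of 11 genes tied at 7, the first of them by name. All 11 genes with 8 or more had H3K4me3, H3K27ac and Pax5 at a start. Of the 11 with 7 peaks, 7 had all 3, Btg1 included, 2 had 1 of them and 2 had none.

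The genes nearest to these peaks mostly had active starts. Of the 2107, 1577 (74.8%, 72.9 to 76.7) had H3K4me3 within 1 kb of a start, against 52.6% of all protein-coding genes, and 1515 (71.9%, 69.9 to 73.8) had H3K27ac, against 48.3%. A Pax5 peak was at the start of 1207 (57.3%, 55.2 to 59.4), against 37.4% of all. With 3 or more acetylated distal Pax5 peaks these shares were 82.7% (77.5 to 86.9), 82.3% and 70.2% (64.2 to 75.5). Genes nearest to an unmarked distal Pax5 peak had lower shares, of 63.7% (61.4 to 65.8), 55.3% and 45.6%. Genes nearest to a distal H3K27ac peak without Pax5 had 72.5% (71.5 to 73.4) with H3K4me3, and 52.8% (51.7 to 53.9) with Pax5. Without the genes that also had an acetylated distal Pax5 peak, these shares were 71.0% and 50.9%. Seen from the genes, 13.4% (12.8 to 14.0) of those with H3K4me3 at a start and 5% (4.60 to 5.43) of those without were nearest to an acetylated distal Pax5 peak.

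Among transcription factors of the B lineage, 23 of 29 (79.3%, 61.6 to 90.2) were nearest to at least 1 acetylated distal Pax5 peak, against 9.42% of all protein-coding genes. All 29 had H3K4me3 at a start, and 13.4% of all genes with that mark had such a peak. Pax5 itself had 2, in an intron 38899 and 37643 bp from its start, with scores of 821.52 and 277.23, the first inside an H3K27ac peak and the second between 2. The gene has a known B lineage enhancer in an intron. Ebf1, which acts with Pax5 in specifying B cells, had 3 peaks, at 283745, 332392 and 471464 bp, with scores of 268.2, 597.83 and 96.51. Id2, an inhibitor of E proteins, had 6, with the highest at 1194.7, all of them 69461 bp or farther away. Erg and Fli1, ETS factors of blood progenitors, had 7 and 3, with highest scores of 1140 and 662. Klf2 had 5, all in introns but none in its own body. Mef2c, an activator of pre-B cell genes, and Bcl11a, needed for early B cells, had 4 each.

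Genes with 3 were Irf4 and Irf8, which act in light chain activation, Bach2, Lef1, Runx1 and the Oct coactivator gene Pou2af1. The strongest of these peaks was nearest to Irf8, with 847.08, but lay 11081 bp upstream of it in an intron of another gene. Tcf4, Foxo1 and Pou2f2 had 2, and Tcf3, Ikzf1, Ikzf3, Myb and Id3 had 1, which for Tcf3, the E2A gene, scored 88.4, near the floor of the list. The 6 without one were Tcf12, Ikzf2, Spib, Sfpi1, which encodes PU.1, Mef2d and Zfp521.

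Of 28 genes of the pre-B receptor and its signalling, 19 (67.9%, 49.3 to 82.1) had an acetylated distal Pax5 peak. The Src family kinase genes Lyn, Blk and Fyn had 4, 3 and 3. Those of Lyn lay 29236 to 51101 bp upstream with scores of 406.06, 395.06, 412.67 and 899.12. Blnk, the adaptor downstream of Syk, had 2, in introns at 30932 and 23501 bp, with scores of 633.91 and 393.42. Plcg2, of the phospholipase branch, had 4 and Inpp5d, the lipid phosphatase SHIP1, had 3. Sykb, Pik3cd, Prkcb and Nfatc1 had 2, and Pik3ap1, Pik3r1, Btk, Rasgrp1, Ptpn6, Bank1, Bcar3 and Grb2 had 1. Those of Ptpn6 and Pik3r1 scored 90.9 and 93.2, near the floor of the list. The surrogate light chain genes Igll1, Vpreb1 and Vpreb2 had none, and each had a Pax5 peak at the start instead. Vpreb3 also had none, and it had no Pax5 peak at the start.

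Of 29 B cell surface genes, 16 (55.2%, 37.5 to 71.6) had one. Cxcr4 and Cd83, an activation marker, led with 11 and 6, and Ccr7, a homing receptor, had 3. Cd22, Il2ra, Fcrla and Tnfrsf13c had 2. Cd79b, a signalling chain of the receptor, had 1 of score 227.91 at 6101 bp, and Cd72, Cd38, Cd74, Cd81, Cd37, Cxcr5 and Fcgr2b also had 1. That of Fcgr2b scored 91.1, near the floor of the list. Cd79a had none, although it had a Pax5 peak at the start.

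Among 19 genes of the IL-7 receptor pathway and survival, 8 (42.1%, 23.1 to 63.7) had one. Il7r had 2 of scores 116.49 and 168.1, and the pro-apoptotic genes Bcl2l11 and Bmf had 2 each, the highest at 508 and 541.81. Jak1, Socs1, Bcl2, Bcl2l1 and Mcl1 had 1, of which those of Jak1 and Socs1 scored 92.0 and 91.2, near the floor of the list. Among 19 genes of V(D)J recombination and cell cycle exit, 8 (42.1%, 23.1 to 63.7) had one. Apart from Btg1, with 7, these were Btg2 with 3, Dntt, Ccnd3 and Cdkn1a with 2, and Ccnd2, Myc and Rb1 with 1. Rag1 and Rag2, of the recombinase, and the end-joining genes Xrcc5, Xrcc6, Lig4, Prkdc and Dclre1c had none. All of these genes but Xrcc5 had Pax5 at a start.

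Genes that Pax5 is known to repress, and genes of lists for other lineages, were also among the nearest genes. Of 24 genes known as repressed by Pax5, 11 (45.8%, 27.9 to 64.9) had an acetylated distal Pax5 peak. Lmo2, a progenitor cofactor, had 5, Prdm1, which drives plasma cell formation, had 3 at 148916 to 269659 bp, and Notch1 had 2. Csf1r, the macrophage growth factor receptor, had 1 of score 465.87 at 13883 bp, and Ccl3, Cd28, Sdc1, Xbp1, Capn2, Cd244 and Grap2 had 1 each. Of 19 T lineage genes 6 (31.6%, 15.4 to 54.0) had one, of which Cd2 had 3 and Zap70 had 2, and Cd4, Cd6 and Il2rb were among those with 1. Cd2 is also a surface marker of mouse pre-B cells and had H3K4me3 and Pax5 at its start, and without it 5 of 18 (27.8%, 12.5 to 50.9) had one. Of these lists, 14 and 2 genes had H3K4me3 at a start. Of 21 myeloid and erythroid genes 3 (14.3%, 4.98 to 34.6) had one, namely Itgam with 3, Cebpb with 2 and Lyz1 with 1. Of 11 genes of MHC class II and antigen display 3 (27.3%, 9.75 to 56.6) had one, H2-Ab1, H2-Oa and H2-Ob with 1 each. Of 16 genes of other tissues none had one, which allows a share of up to 19.4% by the Wilson interval. The intervals of the myeloid and erythroid list and of the list of other tissues included the 9.42% of all genes. Gene length and the H3K4me3 state differ between the lists, and their part in these shares was not tested.

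**Figure D5:**
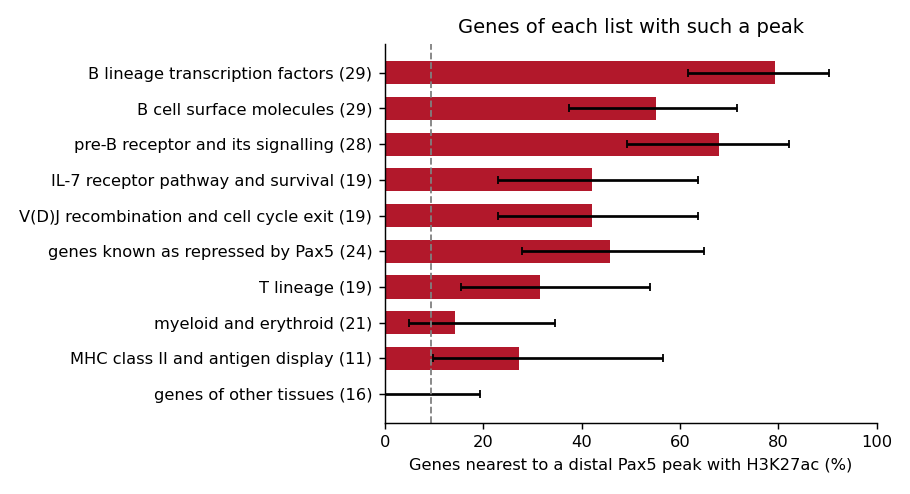
Bars give the percent of the genes of each list that are nearest to at least 1 acetylated distal Pax5 peak, with the number of genes matched in brackets, 95% Wilson intervals as error bars and a dashed line at the 9.42% of all protein-coding genes. The B lineage transcription factors are at 79.3% and the genes of other tissues at 0.

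In the Igk light chain locus and 100 kb past Igkc, from 67505630 to 70776751 on chromosome 6, lay 44 Pax5 peaks, of which 7 were acetylated distal ones. The highest, chr6:70685456-70686161, scored 1107.27 and lay 9027 bp past the start of Igkc, the gene of the kappa constant region, inside an H3K27ac peak of 31.0. A further one, chr6:70693693-70694628, scored 177.16 and lay 17264 bp past the start of Igkc, with the highest H3K27ac score of the 7, at 38.4. The kappa 3′ enhancer and the Ed enhancer are known to lie downstream of Igkc. Of the peaks nearest to a V gene, one of score 462.04, chr6:70659077-70660268, lay 5505 bp from the start of Igkv3-1. The study gives this as the V gene closest to the J genes. The distance was taken without direction, so this peak need not lie among the V genes. One of score 437.61, between 2 H3K27ac peaks with a gap of 210 bp, lay 17799 bp from the start of Igkv7-33. The other 3, nearest to Igkv4-50, Igkv1-115 and Igkv14-111, scored 143.81, 145.3 and 91.18. GENCODE M1 annotates 101 immunoglobulin genes in the region, so a peak at the start of a V gene that is not annotated would also have met the rule.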

How the data were processed

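ChIP-seq peak lists for Pax5, H3K27ac and H3K4me3, 1 library each, were used as deposited. The authors' Pax5 and H3K27ac lists give each peak a score from the peak caller, on a scale they do not name, used here within a list only. The authors' H3K4me3 list has no score but other content, 782636 bins of 25 bp, of which touching ones were merged to 23237 regions. The submitters' processing notes name Bowtie 0.12.9 and MACS 1.4.2, and the methods of the study name another Bowtie release; those methods describe removal of duplicates and adapters and an alignment that kept reads matching a few positions, but peak-calling settings for these lists are not given in the sources used here. Reads were aligned to mm9.

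Distances were taken from the peak edge to the starts of 95458 annotated transcripts of GENCODE M1. Place, nearest protein-coding gene and position among H3K27ac peaks were taken from the peak midpoint. An exon of any transcript took precedence over an intron. Sequence came from the NCBIM37 genome, which is mm9. Gene lists and words were matched by symbol and exact letters on both strands. The peaks and lists were chosen with earlier results of these data known. Sequences were those of the 8 highest Pax5 scores with a core word, chromosome 18 excepted. Named genes were the 12 with most peaks (the 12th taken by name among 11 tied ones), those at the 8 highest Pax5 and 5 highest H3K27ac scores, list genes with a peak, Igk peaks and those at the distance limit. Some list genes are counted but not reported here by name. No test was run. Interval and word functions were tested on simulated data. Python 3.11.15, numpy 2.4.6, pandas 2.3.3, scipy 1.17.1, pysam 0.24.0 and matplotlib 3.10.9 were used. Alternatives were other distances, starts, overlaps, windows and the higher-scoring 50% of each list.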

Additional observations from a re-analysis of the deposited data

How the results depend on the processing

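No paired analysis was possible because Pax5 and the marks had 1 library each. Of 79 recomputed values under 16 alternative settings, 60 stayed within the interval of the value reported or, for counts, within 1.5 times of it. With the higher-scoring 50% of the Pax5 list, 1446 peaks at 1135 genes met the rule, 71.5% had their midpoint inside an H3K27ac peak and 12.5% of them held a core word. With the higher-scoring 50% of the H3K27ac list, 76.3% were inside, 10.5% were between 2 H3K27ac peaks and 9.55% held a core word. Beyond 2.5 kb from every start the median distance to a start was 24960 bp; beyond 5 kb it was 29179 bp, and 47.2% were in introns. With at least 50% of the Pax5 peak covered by H3K27ac, 85.7% were inside, 14.3% between and 77.2% of the nearest genes had H3K4me3. With the midpoint required inside an H3K27ac peak, 0% were between, by construction. With H3K27ac peaks within 200 bp joined, 74.0% were inside and 13.4% between. The core word was in 8.78% of 200 bp windows, in 19.3% of whole Pax5 peaks and, for the G form only, in 4.10%. The causes of these changes were not tested, apart from those set by the alternative's own construction. With 1 library per list and unknown depth, a site absent from a list cannot be told apart from one below its threshold, and no value has a replicate check.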
